A study of Mus musculus with 6 samples.

Results

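Genes typical of basophils, mast cells and eosinophils were read in red pulp macrophages, the macrophages of the spleen that clear aged red blood cells. They were chosen by name for their known expression in these 3 granulocyte types, with earlier results of these data known. They are the 10 genes Cpa3, Hdc, Mcpt8, Prss34, Fcer1a, Ms4a2, Il5ra, Gata2, Prg2 and Epx, of 20018 genes named on the array. Flow-sorted cells came from the spleens of 6 mice, 3 of them wild type and 3 with a Bach2 knockout, all C57BL/6 and aged 8 to 9 weeks, with 1 single-colour Agilent array for each mouse. Bach2 encodes a transcription repressor that pairs with small Maf proteins. The labels do not give the gate of the sort, the knockout allele or whether the deletion was limited to some cells. The mice were male except for wild-type replicate 3, a female.

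Basophils and mast cells arm themselves with IgE bound to a receptor made of an alpha chain (Fcer1a), a beta chain (Ms4a2) and a signalling chain shared with other receptors. Crosslinking of this receptor releases granules that hold histamine, which is made by histidine decarboxylase (Hdc), and proteases such as carboxypeptidase A3 (Cpa3) and, in basophils, Mcpt8 and Prss34. Eosinophils carry granules of major basic protein (Prg2) and eosinophil peroxidase (Epx) and depend on interleukin 5, bound through Il5ra. Gata2 encodes a factor that directs the development of mast cells and basophils. In the spleen these cells are rare, and Bach factors are known to restrain myeloid genes in lymphoid progenitors.

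Levels are log2 of the ratio of a signal to its array's 75th percentile, so a level of 0 means a signal equal to that percentile. A spot is called well above background by a flag of the scanner software, and levels of different genes were not set against each other, because each has its own probe. Differences are knockout minus wild type with the standard error (SE) from limma, and p-values were adjusted over all 55681 probes. The 75th percentile of the signal lay between 763.9 and 2664.2 on the 6 arrays, and 36.3% to 50.6% of probes were well above background. All arrays lay on 1 slide, with wild type in row 1 and knockout in row 2, and the effects of row and genotype cannot be told apart. Each slide column held 1 mouse of each genotype, replicate 1 of both in column 1, replicate 2 in column 2 and replicate 3 in column 3. The 16 measured markers of red pulp macrophages were well above background on every array. Bach2 itself, read by the brighter of its 2 probes, differed by -1.63 ± 0.77 (SE), with knockout replicate 3 inside the wild-type range (limma adjusted p = 1). Within column 3 the knockout was higher by 0.20. This probe was well above background on 3 wild-type and 2 knockout arrays. In bulk RNA, fewer cells of a type and less RNA per cell cannot be told apart.

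The sequence before the transcription start was available from RefSeq (assembly GRCm38.p6) for 9 of the 10 genes, with 250 bases each, and Gata2 has a pair of start sites. Each window was searched on both strands for 4 GATA forms, which are AGATAA, its variant ending in G, namely AGATAG, and the like pair that begins with T, namely TGATAA with its own variant TGATAG, the kind of site that Gata2 protein binds, and for TGAGTCA, the core shared by Maf recognition elements and AP-1 sites. A GATA form was found for 6 of the 9 genes, namely Cpa3, Fcer1a, Ms4a2, Il5ra, Prss34 and Hdc, and in 26.5% of all 32851 windows of this length. TGAGTCA was found for 1 of the 9, Il5ra, and in 4.5% of all windows. The 5 windows shown belong to the gene without overlap between genotypes (Fcer1a), to 3 genes that were high on the arrays of slide column 2 (Cpa3, Hdc and Mcpt8) and to the gene with the TGAGTCA match (Il5ra). They are written from 5′ to 3′ in the direction of the gene, with matches in capitals.
Fcer1a, chr1:173227230-173227479, minus strand: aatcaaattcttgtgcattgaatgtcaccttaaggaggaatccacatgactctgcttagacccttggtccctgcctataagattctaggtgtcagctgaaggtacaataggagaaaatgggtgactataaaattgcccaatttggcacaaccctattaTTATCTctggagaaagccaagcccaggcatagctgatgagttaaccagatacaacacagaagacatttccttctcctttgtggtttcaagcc
Cpa3, chr3:20242182-20242431, minus strand: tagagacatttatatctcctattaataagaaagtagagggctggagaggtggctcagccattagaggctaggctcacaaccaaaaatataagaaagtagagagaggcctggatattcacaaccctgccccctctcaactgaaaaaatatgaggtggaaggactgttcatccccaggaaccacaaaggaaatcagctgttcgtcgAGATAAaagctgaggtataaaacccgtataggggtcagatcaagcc
Hdc, chr2:126618679-126618928, minus strand: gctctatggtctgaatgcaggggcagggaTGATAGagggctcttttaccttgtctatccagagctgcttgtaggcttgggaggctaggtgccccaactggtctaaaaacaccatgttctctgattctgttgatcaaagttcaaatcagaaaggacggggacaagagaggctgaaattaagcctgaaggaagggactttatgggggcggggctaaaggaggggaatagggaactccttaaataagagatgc
Mcpt8, chr14:56085198-56085447, minus strand: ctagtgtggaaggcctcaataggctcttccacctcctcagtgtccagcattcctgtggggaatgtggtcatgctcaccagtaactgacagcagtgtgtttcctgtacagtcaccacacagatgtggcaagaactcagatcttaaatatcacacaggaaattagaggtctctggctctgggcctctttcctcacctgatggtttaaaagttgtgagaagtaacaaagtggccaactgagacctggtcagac
Il5ra, chr6:106749038-106749287, minus strand: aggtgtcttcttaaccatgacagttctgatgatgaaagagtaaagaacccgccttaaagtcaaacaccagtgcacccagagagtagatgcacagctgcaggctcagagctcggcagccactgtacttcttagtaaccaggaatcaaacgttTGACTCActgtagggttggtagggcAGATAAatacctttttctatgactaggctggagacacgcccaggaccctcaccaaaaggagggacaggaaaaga
In Cpa3 the GATA form ended 41 bases before the start, in Fcer1a 87 bases, in Hdc 216 bases and in Il5ra 69 bases, and the TGAGTCA match of Il5ra, which reads TGACTCA on this strand, ended 93 bases before it. The matches of Il5ra did not overlap. The Mcpt8 window held neither motif. A match describes the letters of the window only.

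**Figure D1:**
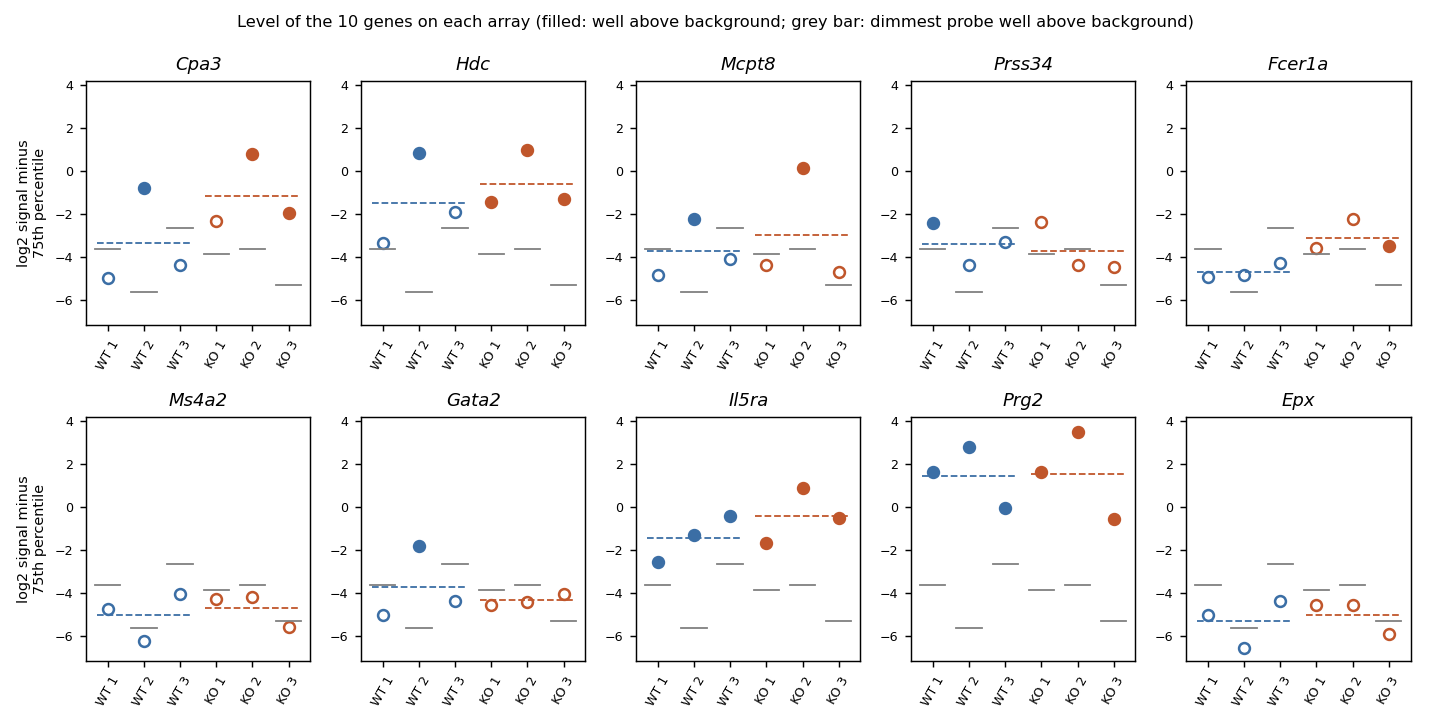
Level of each of the 10 genes on the 6 arrays (y axis, log2 level against the array's 75th percentile; x axis, wild type, WT, in blue and knockout, KO, in orange), with dashed lines at the mean of 3 mice. Filled points are well above background and grey bars mark the dimmest probe of the array that was; Prg2 and Il5ra are filled on all 6 arrays, Ms4a2 and Epx on none.

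The genes fell into 3 classes by how often they were well above background. Prg2 and Il5ra were so on all 6 arrays, Hdc on 4, Cpa3 on 3, Mcpt8 on 2, and Fcer1a, Prss34 and Gata2 on 1 each. Ms4a2 and Epx were well above background on no array, as were 42.3% of all probes. By array, 3, 6 and 2 of the 10 genes were well above background in wild-type replicates 1, 2 and 3, and 3, 5 and 5 in the knockout replicates. Over all probes the share well above background was 42.2%, 50.6% and 36.3% in wild type and 38.2%, 37.8% and 44.8% in knockout. These counts therefore come from arrays that differed in how many probes were detected. Among markers of whole cell types, the 6 of basophils (Mcpt8, Prss34, Fcer1a, Ms4a2, Cd200r3 and Gata2) had at most 2 well above background on any array. The 7 of mast cells (Cpa3, Kit, Tpsb2, Cma1, Mcpt4, Fcer1a and Ms4a2) had 2, 4 and 1 on the wild-type arrays and 1, 5 and 6 on the knockout arrays. Those of eosinophils (Epx, Prg2, Ccr3, Siglecf, Il5ra, Ear1 and Ear2) had 5 or 6 of 7, with Epx well above background on no array. Which cells of the sorted samples gave these signals, the macrophages included, was not tested.

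The IgE receptor chains were dim in both genotypes, and Fcer1a was the only one of the 10 genes whose knockout arrays all lay above every wild-type array. Fcer1a read -4.94, -4.87 and -4.30 in wild type and -3.60, -2.25 and -3.47 in knockout. Its signal was well above background only in knockout replicate 3, although all 3 knockout arrays and wild-type replicate 2 carried the weaker flag for a signal significantly above 0. The means were -4.70 ± 0.35 (SD, n = 3) and -3.11 ± 0.75 (SD, n = 3), a log2 difference of 1.60 ± 0.65 (SE, 95% interval 0.17 to 3.02; limma unadjusted p = 0.031, adjusted p = 1). Because wild type was never well above background, its levels were raised, where lower, to the dimmest probe well above background on each array. The knockout mean was then 1.53-fold higher. This is no strict bound, because only 1 of the 3 knockout arrays was well above background itself. Knockout replicate 2 was not, although its -2.25 lay above that array's dimmest probe well above background, at -3.63. Across all probes, 0.684% had every knockout array above every wild-type array, and 0.524% had an unadjusted limma p under 0.05 with a higher knockout level. Within slide columns 1, 2 and 3 the Fcer1a difference was 1.34, 2.62 and 0.83. It was 1.08 without both arrays of column 2.

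Fcer1a was also the only 1 of the 10 genes among the 279 probes of the authors' deposited table. There, in the authors' deposited table, it stood at -0.99, -0.91 and -0.35 in wild type and 0.35, 1.70 and 0.46 in knockout, values centred on the probe's median over the arrays. Marker lists of lymphocytes lay on the same side. All 12 markers of NK cells and cytotoxic lymphocytes and 11 of 12 T cell markers, each read by its brightest probe, had differences above 0. None passed the test. Among all probes well above background on at least 3 arrays, 38.9% had a difference above 0. In the T cell list the dimmer probes of Cd8a and Cd4 read -0.141 and -0.615, and those of Zap70 and Bcl11b 2.124 and 1.997. The dimmer probes in the NK list all lay above 0, between 1.172 and 2.243. The mean level over the NK list ran from 1.07 to 1.77 in wild type and from 1.86 to 3.29 in knockout, and over the T cell list from 0.23 to 0.57 and from 1.06 to 1.63, without overlap. How often other lists of this size lacked overlap was not counted. The part of the NK and T cell lists in the Fcer1a difference was not tested.

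Ms4a2, the beta chain that amplifies the signal of the receptor, could not be separated from background. It read -4.75, -6.25 and -4.05 in wild type and -4.27, -4.19 and -5.61 in knockout. The difference was 0.32 ± 0.75 (SE, 95% interval -1.31 to 1.96; limma unadjusted p = 0.673), and it was -0.29 without wild-type replicate 2. The 23456 probes never well above background had median levels of -4.89, -6.36 and -4.23 in wild type and -4.45, -4.40 and -5.78 in knockout. The 6 Ms4a2 levels ranked the arrays in the same order as those medians, from wild-type replicate 2 at the bottom to wild-type replicate 3 at the top.

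Among the granule genes, Cpa3 had the largest difference of the 10 genes and the widest spread. Cpa3 stood at -4.98, -0.79 and -4.36 in wild type and -2.31, 0.78 and -1.98 in knockout. Wild-type replicate 2 and knockout replicates 2 and 3 were well above background, and wild-type replicate 2 lay above all but 1 of the knockout arrays, so the genotypes overlapped. The log2 difference was 2.21 ± 1.11 (SE, 95% interval -0.20 to 4.62; limma unadjusted p = 0.0691, adjusted p = 1). It rests in part on background, since wild-type replicates 1 and 3 and knockout replicate 1 were not well above it. Within column 2, where both arrays were, the difference was 1.57, and within columns 1 and 3 the readings differed by 2.68 and 2.38. Leaving out single mice moved it between 1.24, without knockout replicate 2, and 3.50, without wild-type replicate 2, and it was 1.14 with another background correction (normexp).

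Hdc, the enzyme that makes histamine, followed a similar order of arrays. It read -3.37, 0.82 and -1.89 in wild type and -1.46, 0.97 and -1.31 in knockout. In wild type only replicate 2 was well above background, against all 3 knockout arrays, but wild-type replicate 2 lay above 2 of the 3 knockout arrays. The log2 difference was 0.88 ± 1.02 (SE, 95% interval -1.35 to 3.11; limma unadjusted p = 0.408). Within columns 1, 2 and 3 it was 1.91, 0.14 and 0.59, and it turned to -0.07 without wild-type replicate 1.

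The basophil proteases Mcpt8 and Prss34 were each well above background on 2 arrays at most and had different high arrays. Mcpt8 stood at -4.86, -2.23 and -4.09 in wild type and -4.38, 0.17 and -4.69 in knockout, high in replicate 2 of both genotypes only. Knockout replicate 2 had a processed signal of 1157.7, against 44.9 to 306.5 on the other 5 arrays. The log2 difference of 0.76 ± 1.17 (SE, 95% interval -1.78 to 3.29; limma unadjusted p = 0.528) became -0.81 without that knockout mouse and -0.06 without both arrays of column 2. Prss34 stood at -2.44, -4.38 and -3.33 in wild type and -2.36, -4.39 and -4.50 in knockout, highest in replicate 1 of both genotypes. Only wild-type replicate 1 was well above background. The difference was -0.36 ± 0.79 (SE, 95% interval -2.07 to 1.34; limma unadjusted p = 0.652), and it was 0.11 without wild-type replicate 1 and 0.01 without knockout replicate 3. Among probes well above background on at least 1 array, 16.4% had the array of column 1 highest in both genotypes, as Prss34 did.

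Gata2, the transcription factor, was well above background on 1 array of 6. It read -5.02, -1.82 and -4.36 in wild type and -4.57, -4.42 and -4.04 in knockout, so that wild-type replicate 2 stood alone. The difference of -0.61 ± 0.82 (SE, 95% interval -2.39 to 1.18; limma unadjusted p = 0.474) changed to 0.35 without that mouse. Wild-type replicate 2 was also the brightest wild-type array for Cpa3, Hdc and Mcpt8, but in knockout replicate 2, where those 3 genes were again brightest, Gata2 was not well above background.

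Il5ra, the interleukin 5 receptor chain found on eosinophils, basophils and some B cells, was measured on every array. It stood at -2.57, -1.31 and -0.40 in wild type and -1.65, 0.87 and -0.50 in knockout. Wild-type replicate 3 lay above 2 of the 3 knockout arrays, so the genotypes overlapped. The means were -1.43 ± 1.09 (SD, n = 3) and -0.43 ± 1.26 (SD, n = 3), a log2 difference of 1.002 ± 0.81 (SE, 95% interval -0.76 to 2.77; limma unadjusted p = 0.24, adjusted p = 1). Within columns 1, 2 and 3 the difference was 0.92, 2.18 and -0.10. It was 0.35 without knockout replicate 2 and 0.43 without wild-type replicate 1, and 0.41 without both arrays of column 2.

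The eosinophil granule genes Prg2 and Epx were far apart in detection. Prg2 was the only gene of the 10 besides Il5ra to be well above background everywhere, at 1.63, 2.79 and -0.03 in wild type and 1.66, 3.52 and -0.57 in knockout. Replicate 2 was the highest and replicate 3 the lowest in both genotypes. The means were 1.46 ± 1.42 (SD, n = 3) and 1.54 ± 2.05 (SD, n = 3), and the difference was 0.07 ± 1.02 (SE, 95% interval -2.14 to 2.28; limma unadjusted p = 0.945). This interval includes changes of about 2 log2 units either way. Within the columns Prg2 differed by 0.03, 0.73 and -0.54, and it was -0.92 without knockout replicate 2 and -0.68 without wild-type replicate 3. Epx was well above background nowhere, at -5.04, -6.56 and -4.38 in wild type and -4.59, -4.54 and -5.93 in knockout, which is again the order of the arrays' medians over probes never well above background. Its difference of 0.30 ± 0.75 (SE, 95% interval -1.33 to 1.93; limma unadjusted p = 0.693) lies beside a median of 0.29 over the 23456 probes never well above background.

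**Figure D2:**
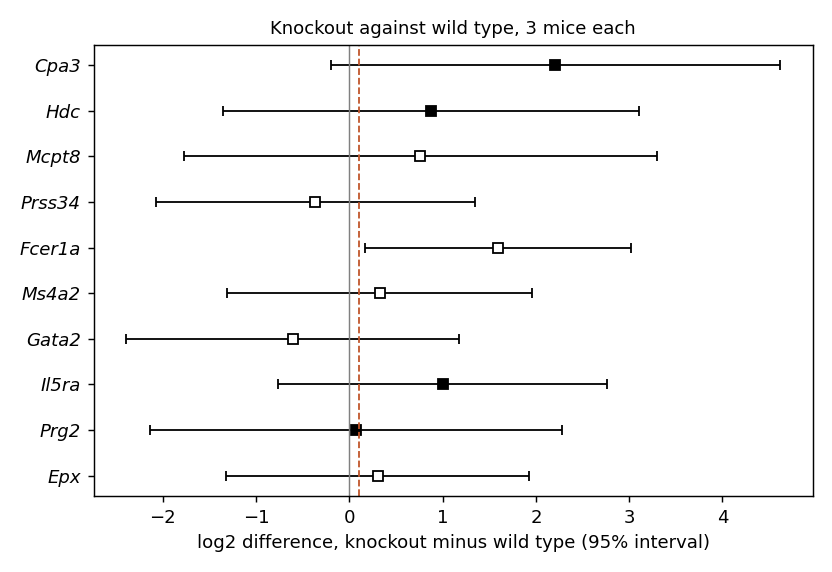
Log2 difference, knockout minus wild type (x axis), with its 95% interval from limma for each of the 10 genes, 3 mice per genotype; filled squares are genes well above background on at least 3 arrays and the dashed line marks the median of all probes at 0.10. The interval of Fcer1a alone lies above 0, from 0.17 to 3.02, before adjustment over all probes.

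Read together, 8 of the 10 genes had a difference above 0, and Prss34 and Gata2 lay below. Of all probes 56.5% had a difference above 0. The median over the 10 genes was 0.54, beside 0.10 over all probes. Among all probes, those never well above background had a median of 0.29, and those well above it on at least 3 arrays -0.11. The 10 genes hold both kinds, and they were chosen with earlier results of these data known. Without knockout replicate 2 the medians over the 10 genes and over all probes were 0.07 and 0.02. Without both arrays of column 2 the 10 genes had a median of 0.16 and all probes one of -0.52. Other runs raised the median over the 10 genes. It was 1.25 without both arrays of column 3, 1.08 without knockout replicate 3 and 0.90 without wild-type replicate 2. In the same runs the medians over all probes were 0.445, 0.335 and -0.29. None of the 10 genes passed the limma test at an adjusted p under 0.05. Over all 55681 probes limma called 0 (0%), with 292 higher and 236 lower at an unadjusted p under 0.05, and 18 with a variance trend and robust settings, none of them among the 10 genes.

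**Figure D3:**
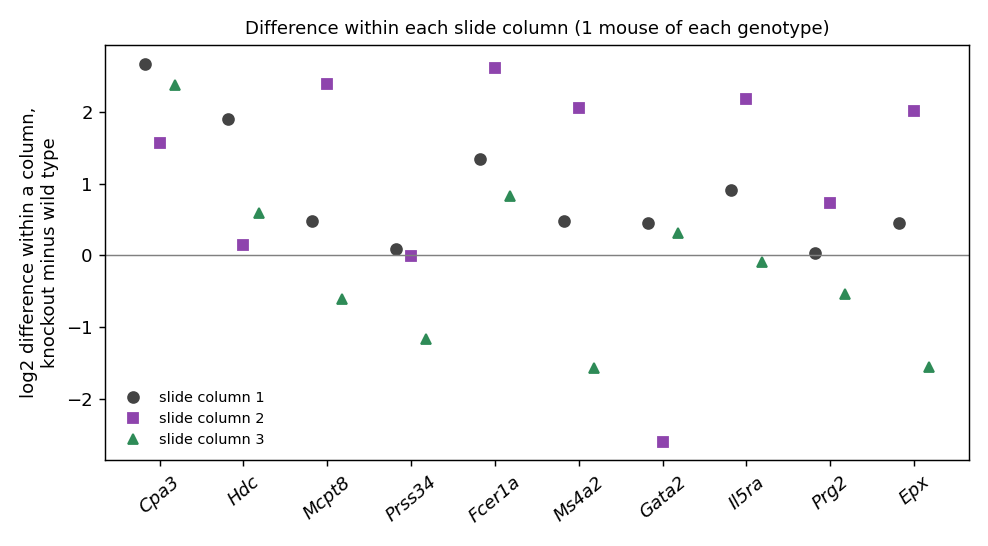
Log2 difference between the knockout and the wild-type mouse of the same slide column (y axis) for the 10 genes (x axis), with 1 point per column and no error, since each point is 1 mouse against 1 mouse. Cpa3, Hdc and Fcer1a lie above 0 in all 3 columns, whereas the other 7 genes have points on both sides of 0.

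In 4 of the 10 genes the spread between mice of a genotype had a shared form. Cpa3, Hdc, Mcpt8 and Prg2 were highest in replicate 2 in both genotypes, which is slide column 2. This count of 4 of 10 genes was made after the values were seen, and 21.5% of probes well above background on at least 1 array shared the pattern. Ms4a2 and Epx, well above background on no array, fall outside that share. The pattern was absent in Fcer1a, Il5ra, Prss34 and Gata2. The SD over all 6 arrays was 2.16 for Cpa3, 1.67 for Hdc, 1.58 for Prg2 and 1.19 for Il5ra. Among the 23041 probes well above background on at least 3 arrays the median SD was 0.63, and 98.7%, 94.8%, 93.5% and 85.1% of them varied less than Cpa3, Hdc, Prg2 and Il5ra.

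Neutrophil markers had the same high arrays. Of 11 measured markers 8 were highest on the column 2 array in both genotypes, and 9 had a difference above 0, with a median of 0.86. The mean level over the list was 0.43, 1.63 and -0.13 in wild type and 1.14, 2.66 and 0.50 in knockout. Erythroid markers had other high arrays, with list means of 6.63, 3.84 and 4.42 in wild type and 6.54, 5.51 and 4.06 in knockout, highest in column 1 as Prss34 was. The mean over the macrophage markers lay between 5.94 and 6.84 in wild type and between 5.94 and 6.05 in knockout. All 16 had a difference below 0, with a median of -0.39. Among all probes well above background on at least 3 arrays the median was -0.11, and 38.9% had a difference above 0. In 2 of the 16 every knockout array lay below every wild-type array, and the share of all probes that did so was not counted. All 9 megakaryocyte and platelet markers, each read by its brightest probe, also lay below 0, with a median of -0.61. Of these, Itga2b and Gp5 were well above background on no array. A dimmer probe of Itgb3 read 1.07, and the dimmer probes of Gp1bb read -0.55 and 0.34. None of the markers in these lists passed the test. The part of these lists in the levels of the 10 genes was not tested.

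The 4 genes well above background on at least 3 arrays, Cpa3, Il5ra, Prg2 and Hdc, were centred on their means and averaged to 1 profile, which read -1.64, 1.06 and -0.99 in wild type and -0.26, 2.22 and -0.40 in knockout. Among 4244 other genes that varied enough, the closest to this profile over the 6 arrays were Fut1, Rasgef1a, Fbxo27, 4930486L24Rik, S100a6 and Tnfaip8l1. Their root mean square distance from it ran from 0.31 log2 units for Fut1 to 0.40 for Tnfaip8l1. S100a6, a calcium-binding protein gene of many cell types, read 3.76, 5.83 and 4.05 in wild type and 4.76, 6.36 and 4.74 in knockout. Fut1, a fucosyltransferase gene, read -3.83, -1.13 and -3.78 in wild type and -2.61, -0.65 and -2.48 in knockout.

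Other protease genes of mast cells and basophils showed both directions. Of 9 measured, 6 lay above 0 and 3 below, with a median difference of 0.30, and none passed the test. Cma1, the mast cell chymase, read -3.31, -3.46 and -4.04 in wild type and -2.98, -1.12 and -1.45 in knockout. Every knockout array lay above every wild-type array, with a difference of 1.75 ± 0.69 (SE; limma unadjusted p = 0.0257, adjusted p = 1), but only 1 wild-type and 2 knockout arrays were well above background. Mcpt2, a chymase of mucosal mast cells, lay on the other side of 0, at -1.30, -0.40 and -1.98 in wild type and -2.72, -3.01 and -2.38 in knockout. Its difference was -1.48 ± 0.66 (SE; limma unadjusted p = 0.0442, adjusted p = 1), with 2 wild-type arrays and 1 knockout array well above background. Gzmb, the granzyme that NK and T cells also make, had a difference of 3.19 ± 0.80 (SE; limma adjusted p = 1) without overlap, beside the NK and T cell lists given above. Mcpt4, a chymase of connective tissue mast cells that was picked out after its values were seen, was well above background in knockout replicates 2 and 3 only, at -1.36 and -2.96. On the other 4 arrays it lay between -4.87 and -4.12. With wild type raised as for Fcer1a, the knockout mean was 1.57-fold higher. This is no strict bound either, because knockout replicate 1 was not well above background.

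Of 20 other basophil and mast cell genes, 12 lay above 0 and 8 below, with a median of 0.16, and 6 were well above background on no array. Il1rl1, a cytokine receptor of mast cells and type 2 lymphocytes, had the smallest p among those well above background on at least 3 arrays. It read 0.88, -3.46 and -2.98 in wild type and 0.16, 0.81 and -0.57 in knockout, and wild-type replicate 1 lay above all knockout arrays. Its difference was 1.99 ± 1.01 (SE; limma unadjusted p = 0.0727), and the dimmer probes of the gene gave 1.16 and 1.43. The first of these dimmer probes was well above background on no array, and the second on 1 knockout array only. Il4, the type 2 cytokine, differed by -0.46 ± 0.75 (SE) and Alox5, the lipoxygenase that starts leukotriene synthesis, by 0.58 ± 1.15 (SE). Kit, the stem cell factor receptor of mast cells and progenitors, was well above background on all arrays, at 0.95, 2.32 and 1.51 in wild type and 1.08, 0.65 and 2.13 in knockout. The basophil marker Cd200r3 was well above background on none; both it and Kit were picked out after their values were seen.

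Other eosinophil genes were mostly well above background in both genotypes. Of 11 measured, 5 lay above 0 and 6 below, with a median of -0.22, and 7 were well above background on all 6 arrays. Ear2, a ribonuclease of the eosinophil family, read 7.27, 8.11 and 8.06 in wild type and 7.31, 7.85 and 6.90 in knockout. Its difference was -0.46 ± 0.64 (SE; limma unadjusted p = 0.485); the Ear genes are near-identical copies whose probes may read one another. Ccr3, the eotaxin receptor, read 4.79, 6.54 and 6.34 in wild type and 5.38, 5.33 and 5.92 in knockout, a difference of -0.34 ± 0.68 (SE; limma unadjusted p = 0.624). Ear6 differed by 0.33 ± 0.66 (SE). Prg3, a relative of Prg2 that was picked out after its values were seen, was well above background on all arrays, at -1.57, -0.10 and -0.73 in wild type and -0.29, 0.05 and -1.21 in knockout. As with Prg2, replicate 2 was highest in both genotypes and replicate 3 lowest in knockout, while replicate 1 was lowest in wild type.

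**Figure D4:**
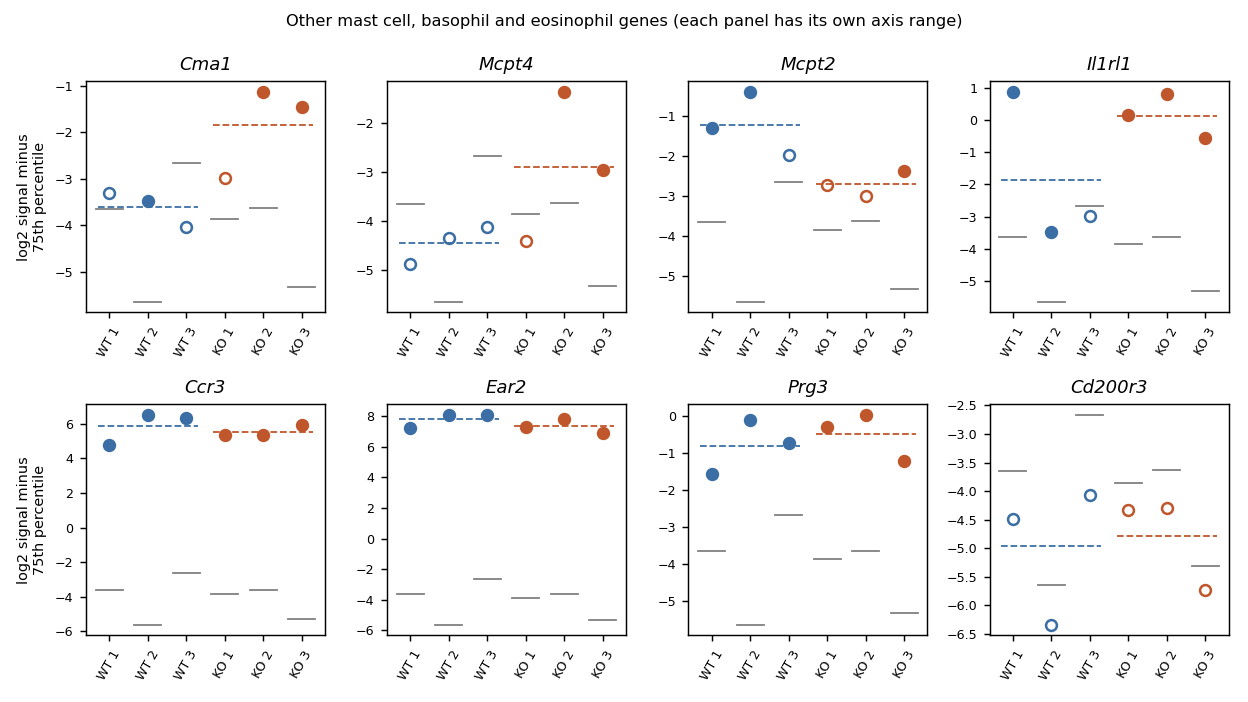
Levels of 8 further genes of mast cells, basophils and eosinophils on the 6 arrays (y axis, log2 level against the array's 75th percentile, with a range of its own in each panel; symbols, dashed means and grey bars as in the plot of the 10 genes). Cma1 lies above wild type on every knockout array and Mcpt2 below it, Ccr3 and Ear2 are filled on all 6 arrays, and Cd200r3 on none.

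Genes that carry the signal of the IgE receptor and genes of granulocyte development showed no common direction. Of 12 signalling genes, which macrophages also express, 4 lay above 0 and 8 below, with a median of -0.08. Lat, an adaptor, differed by 1.25 ± 0.70 (SE; limma unadjusted p = 0.101), Lat2 by 0.63 ± 0.65 (SE), and Fcer1g, the signalling chain, by -0.62 ± 0.65 (SE). Fcer1g read 7.43, 8.27 and 8.61 in wild type and 7.41, 8.00 and 7.05 in knockout, so both genotypes held this chain on all arrays while the alpha chain was at the edge of detection. Of 14 lineage factors 7 lay above 0 and 7 below, with a median of -0.01. Among them Ikzf2 differed by 1.01 ± 0.72, Spi1 by -0.63 ± 0.75 and Ikzf1 by 0.46 ± 0.68 (SE), and none passed the limma test.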

How the data were processed

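The authors deposited scanner output with spot intensity values for 6 arrays, read with Agilent Feature Extraction, version 10.7.3.1 per the file headers and 9.1 per the submitters' processing notes. The authors' deposited table holds log2 values of 279 probes, which matched the scaled, probe-centred scanner values with a largest difference of 0.156. Per the labels' protocols, RNA was amplified before labelling.

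The processed signal of 59305 non-control spots was averaged over unflagged spots to 55681 probes, divided by each array's 75th percentile and put on the log2 scale. RefSeq accessions named 26413 probes, and each of the 10 genes had 1. Listed genes with several named probes were counted by the brightest. All probes entered lmFit and eBayes of limma 3.58.1 (R 4.3.3) with Benjamini-Hochberg adjustment, which was tested on simulated data. Normexp was run on median signals and median backgrounds. For the folds of Fcer1a and Mcpt4, the dim genotype's level on each array was raised, where lower, to that of the dimmest probe well above background there. The members and lists were chosen with earlier results of these data known. All 10 genes were named, and of each list at most 3 genes with the smallest p among those well above background on at least 3 arrays; exceptions are stated. For the likeness search, candidates had an SD of at least 0.5 times that of the profile. Replicates were numbered in the order of the records. Alternatives were other scalings, filters, a block for slide column and leaving out mice.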

Additional observations from a re-analysis of the deposited data

How the results depend on the processing

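None of the 10 genes was called under any alternative. The count of called probes rose from 0 to 3 with normexp, 18 with a variance trend and robust settings, and 20 without both arrays of slide column 2, an alternative chosen after the data were seen; it was 0 without each mouse. The count of genes above 0 was 4 of the 4 left under either filter on dim probes and 5 of 10 without column 2, beside 38.9% and 39.3% of all probes under the filters and 27.3% without column 2. Cpa3 and Hdc pass the filters with 1 wild-type array each well above background. Scaling moved the median of all probes from 0.10 to 0.24 (array median) and -0.08 (normexp). Cpa3, Fcer1a and Il5ra stayed above 0 in all 18, 17 and 18 alternatives run, but some of these could not move the estimate or were not separate. The slide column block and the variance trend settings left each difference at its main value, as the filters did for Cpa3 and Il5ra. Leaving out the female mouse and leaving out wild-type replicate 3 are the same run. The deposited value of Fcer1a comes from the same arrays. Without column 2 the median of all probes was -0.52, and Ms4a2 read -0.54, Epx -0.56, Mcpt8 -0.06, Prg2 -0.26 and Gata2 0.39. With normexp Prss34 read 0.036 and Prg2 -0.04, and without the female mouse Prg2 read -0.68. The mice tagged P6 in the labels are replicate 3 of both genotypes, so leaving both out removes slide column 3. In that run Prss34 read 0.04. Leaving out each mouse moved Ms4a2 between -0.29 and 0.81, Epx between -0.32 and 0.78, Mcpt8 between -0.81 and 1.62, Gata2 between -1.25 and 0.35, Prss34 between -1.06 and 0.11, Prg2 between -0.92 and 1.13, and Hdc between -0.067 and 2.03. The lowest values of Ms4a2 and Epx came without wild-type replicate 2, where the median of all probes was -0.29. The cause of the other turns was not tested. With slide column as a block no call changed, and 417 probes were higher and 153 lower at an unadjusted p under 0.05. Signal over background limits 6 of the 10 genes, well above background on at most 2 arrays. It also limits Cpa3 and Hdc, which had 1 wild-type array each well above background. The authors' deposited table gave 1.59 for Fcer1a and holds no other of the 10 genes.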
